A study of Mus musculus with 6 samples.

Results

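The genes of the major histocompatibility complex (MHC) and of the antigen presentation machinery were compared between the epididymal white adipose tissue (eWAT) of cachectic and control mice. The members were all protein-coding genes whose symbol starts with H2-, together with B2m, Tap1, Tap2, Tapbp, Erap1, Cd74, Ciita and Nlrc5, which made 42 of the 55039 genes in the count table. Of these, 30 belonged to the class I pathway, 11 to the class II pathway, and 1, H2-Ke6, carries an H2 name but encodes a hydroxysteroid dehydrogenase. All mice were C57BL/6 males, 6 to 7 weeks old at the start. The CAC group (n = 3 mice) carried subcutaneous tumors of Lewis lung carcinoma (LLC), a cell line from a mouse lung tumor that causes cancer-associated cachexia, and the CONT group (n = 3 mice) received PBS alone. The eWAT was taken 28 days after injection and gave 1 RNA library per mouse.

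Class I molecules display peptides from inside the cell to CD8 T cells. They consist of a heavy chain and the light chain B2m, and nearly all nucleated cells make them. Class II molecules display peptides taken up from outside the cell to CD4 T cells, and are made mainly by dendritic cells, macrophages and B cells, and by other cells, adipocytes included, under interferon gamma. CIITA is the coactivator that switches class II genes on, and NLRC5 is its class I counterpart.

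The libraries held between 15713794 and 25926425 counts, so that 1 CPM (counts scaled to library sizes adjusted by the TMM method) stood for 11.2 to 26.5 reads. CONT replicate 1 stood apart with 30.2% of its counts on mitochondrial genes, against 3.89% to 5.04% in the other libraries. CONT replicate 3 held 9937 summed CPM of 12 epididymis and testis genes, against 0 to 918 CPM in the others. Adipoq, Plin1 and Cidec, which define adipocytes, were at 778 CPM or more in every library, whereas Lep, the gene of leptin, was at 409 to 697 CPM in CONT, at 512 CPM in CAC replicate 1 and at 3.996 and 0.415 CPM in CAC replicates 2 and 3. The counts of members below are therefore also given without single libraries.

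Of the 42 members, 37 lie on chromosome 17. The promoters of MHC genes carry short conserved boxes, among them the X box, bound by the RFX complex, and the Y box, bound by NF-Y, on which CIITA and NLRC5 assemble. The proximal promoters of 2 classical class II genes are shown because the letters of the Y box lie in both and those of the X box type in H2-Eb1. The sequences are RefSeq windows on GRCm38.p6, printed 5′ to 3′ on the gene's strand and ending 1 base before the start site, with matches to AGNAACNG (X box type) and to CCAAT or its reverse ATTGG (Y box) in capitals. H2-Aa holds no match to the X box letters in this window.
H2-Eb1, chr17:34305747-34305866, plus strand: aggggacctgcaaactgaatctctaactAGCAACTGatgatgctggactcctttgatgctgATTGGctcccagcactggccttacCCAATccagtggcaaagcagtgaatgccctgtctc
H2-Aa, chr17:34287824-34287943, minus strand: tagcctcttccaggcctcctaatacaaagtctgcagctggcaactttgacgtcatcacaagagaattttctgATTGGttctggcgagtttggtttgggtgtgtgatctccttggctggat

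The Y box letters began 59 and 35 bases before the start site in H2-Eb1 and 48 bases before it in H2-Aa. In H2-DMb1, H2-Ob and H2-Oa they began 61, 57 and 43 bases before it. In H2-DMb2 and H2-DMa they began 90 and 198 bases before a RefSeq start site that is not the start of the counted gene. The H2-DMa window (chromosome 17, 34125268 to 34125567) lies before the gene, which starts at 34135182. The H2-DMb2 window (34144999 to 34145298) lies inside the gene, which starts at 34143307. Windows of 250 bases before to 50 bases after the start site were found for 35 of the 42 members and for 23 of the 29 tested. CCAAT, on either strand, stood in the windows of all 7 tested class II genes that had one and of 13 of 15 class I genes, against 41.06% of 27025 genes. The X box type stood in 3 of the 7 class II windows (H2-DMb1, H2-Eb1 and H2-Oa) and in 1 of the 15 class I windows (H2-M3), against 19.68% of all genes. It began 95 bases before the start site in H2-DMb1 and 92 bases before it in H2-Eb1, ahead of their Y box letters. In H2-Oa it stood on the minus strand 3 bases before the start site, behind the Y box letters, and in H2-M3 after the start site. GAAANNGAA, an interferon response type, stood in 4 class I windows (B2m, Erap1, H2-T22 and H2-T23) and in 0 class II windows, against 9.761%. A match of letters is a description and not a binding site.

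The promoters of a classical class I heavy chain and of the light chain are shown for contrast. That of H2-K1 holds GGGGATTCC, the letters of a kappaB type site, which stood in only 80 of the 27025 genes (0.296%). Among the 15 class I windows it stood in 4, those of H2-K1, H2-D1, H2-Q6 and H2-Q7. Capitals mark the kappaB type and Y box letters in H2-K1, and the interferon response type and Y box letters in B2m, whose stretch ends 2 bases before the start site.
H2-K1, chr17:34000348-34000487, minus strand: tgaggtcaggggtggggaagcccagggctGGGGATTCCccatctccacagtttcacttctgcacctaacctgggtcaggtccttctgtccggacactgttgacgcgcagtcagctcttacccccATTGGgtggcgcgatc
B2m, chr2:122147537-122147685, plus strand: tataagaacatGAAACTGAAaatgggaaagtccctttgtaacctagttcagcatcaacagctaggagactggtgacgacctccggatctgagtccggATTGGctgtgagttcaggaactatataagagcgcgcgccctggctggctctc

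All 10 class II genes tested had a negative log2 fold change in CAC against CONT, while the classical class I heavy chains were at similar levels in both groups. Of the 42 members, 29 passed the filter on low counts. None had an adjusted p under 0.05 in edgeR's quasi-likelihood test, nor did any of the 17296 genes tested (0%). With DESeq2, 1 member passed that threshold, against 4.97% of all genes with an adjusted p, and with limma and sample quality weights 5 did, against 5.53% of all genes. At an unadjusted p under 0.05, 10 of the 29 were lower in CAC, where 6.95% of all genes were, and 0 were higher, where 6.31% of all genes were. The groups did not overlap in 9 members that were lower in CAC, against 10.7% of all genes, and in 2 that were higher, against 11.8%. The median log2 fold change was -0.70 over the 29 members and -0.06 over all genes tested.

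Single libraries moved the count of 10. Leaving out CONT replicate 2 gave 2 of 30 members tested, where 5.3% of all genes were lower, and leaving out CAC replicate 3 gave 2 of 31, against 4.47%, so that both counts were near the share of all genes. Leaving out CONT replicate 1 gave 5 of 30, against 8.28%, and CAC replicate 2 gave 5 of 30, against 3.69%. Leaving out CONT replicate 3 gave 6 of 30, against 4.25%, and CAC replicate 1 gave 9 of 31, against 5.37%. H2-DMb1 had an unadjusted p under 0.05 in all 6 of these fits.

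**Figure D1:**
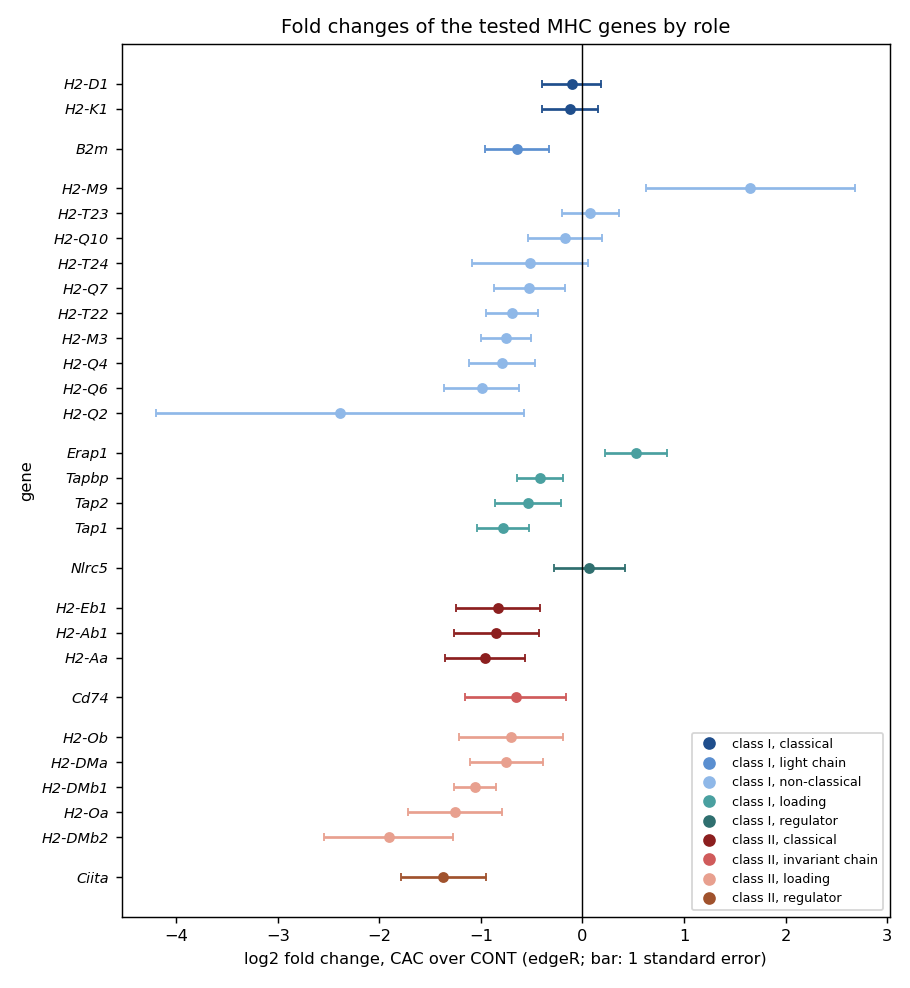
Log2 fold change of CAC over CONT (x axis) for the tested members (y axis) other than H2-Ke6, grouped and colored by role, with bars of 1 standard error from edgeR. All 10 class II genes lie below 0, H2-D1 and H2-K1 lie near 0, and the lowest class II value is -1.91 for H2-DMb2.

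The classical class II chains pair into the molecules that hold the peptide. H2-Aa and H2-Ab1 encode the alpha and beta chains of I-A, and H2-Eb1 the beta chain of I-E, whose alpha gene is not functional in this strain. H2-Ab1 (chromosome 17, 34263209 to 34269418) was at 308, 503 and 448 CPM in CONT replicates 1 to 3 and at 375, 179 and 146 CPM in CAC replicates 1 to 3. CAC replicate 1 lay within the CONT range and the other two CAC libraries lay below it, so the groups overlapped. The log2 fold change was -0.85 ± 0.42 (SE), with an edgeR adjusted p of 0.426.

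H2-Aa (chromosome 17, 34282744 to 34287827) was at 272, 436 and 403 CPM in CONT and at 295, 158 and 120 CPM in CAC. Its log2 fold change was -0.96 ± 0.39, with an unadjusted p of 0.0474 and an adjusted p of 0.371 in edgeR. H2-Eb1 (chromosome 17, 34305877 to 34316199) was at 262, 474 and 426 CPM in CONT and at 339, 173 and 140 CPM in CAC. It had a log2 fold change of -0.83 ± 0.41, with an edgeR adjusted p of 0.429. The 3 genes thus held the same order of libraries in CAC, with replicate 1 highest and replicate 3 lowest.

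Their levels kept nearly fixed proportions. Per 100 FPKM (the authors' counts scaled to gene length and to a constant for each library) of H2-Ab1, H2-Aa stood at 77.2, 75.8 and 78.5 FPKM in CONT and at 68.8, 76.7 and 71.9 FPKM in CAC. H2-Eb1 stood at 117, 130 and 131 FPKM in CONT and at 125, 134 and 132 FPKM in CAC. Summed with the barely expressed H2-Eb2, the classical class II chains reached 1178 ± 298 CPM in CONT and 642 ± 322 CPM in CAC (SD, n = 3 each), or 54.5% of CONT. In bulk tissue, fewer cells that make class II molecules and less class II RNA per cell cannot be told apart.

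**Figure D2:**
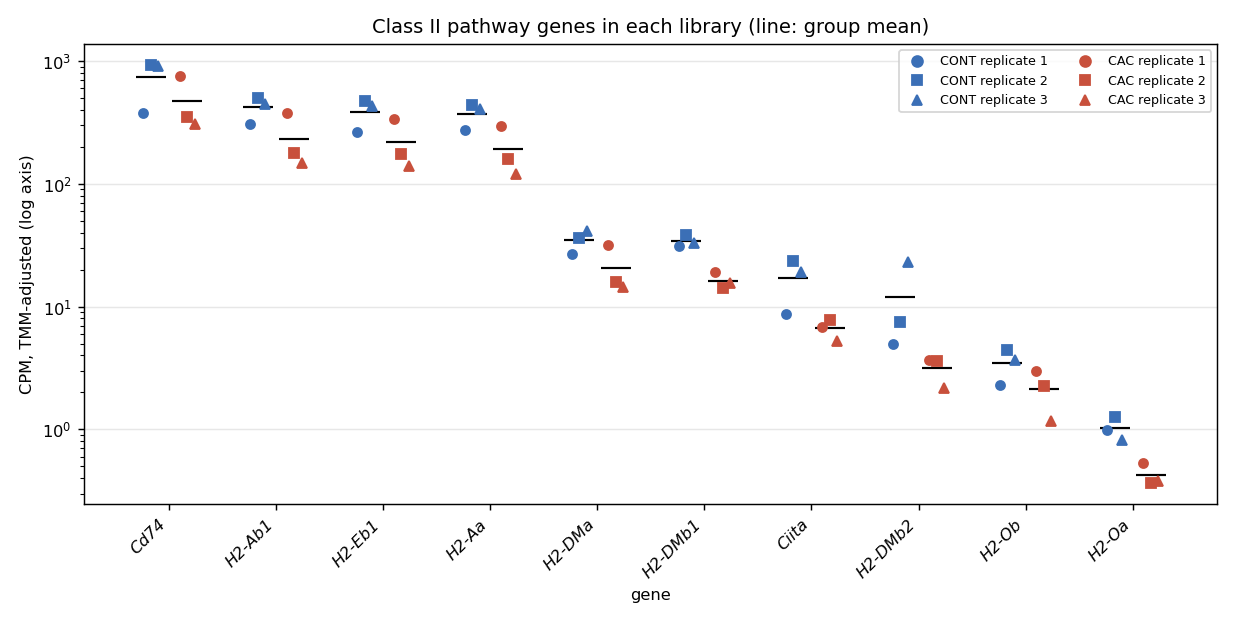
Level of the 10 tested class II genes (x axis) in each library, in CPM on a log axis, with CONT in blue, CAC in red, a marker shape for each replicate number and a line at the group mean. CAC replicates 2 and 3 lie below every CONT library in all 10 genes, while CAC replicate 1 lies at or above the lowest CONT library in 6.

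Cd74 encodes the invariant chain, which fills the peptide groove until the molecule reaches the endosome. By FPKM it was the most abundant class II member, and it was at 374, 928 and 913 CPM in CONT and at 747, 350 and 308 CPM in CAC. CONT replicate 1 was close to the 2 low CAC libraries, and the log2 fold change was -0.66 ± 0.50 with an edgeR adjusted p of 0.588. Per 100 FPKM of the 3 classical chains, Cd74 stood at 47.8, 70.0 and 76.4 FPKM in CONT and at 78.8, 72.9 and 80.6 FPKM in CAC. CONT replicate 1, the library rich in mitochondrial counts, was the low one in this ratio.

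The loading factors exchange the invariant chain fragment for peptide (H2-DM) or restrain that exchange (H2-O). H2-DMb1, a beta chain of H2-DM (chromosome 17, 34153072 to 34160230), was at 30.9, 38.2 and 32.6 CPM in CONT and at 19.1, 14.1 and 15.7 CPM in CAC. The groups did not overlap, and all 3 CAC libraries lay well below the lowest CONT library. Its log2 fold change of -1.06 ± 0.20 had the smallest p of the members, with an unadjusted p of 0.00147 and an adjusted p of 0.215 in edgeR. Leaving out any single library kept it between -1.14 and -0.95.

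H2-DMa, the alpha chain of H2-DM, was at 26.8, 36.1 and 41.5 CPM in CONT and at 31.8, 15.9 and 14.4 CPM in CAC, with a log2 fold change of -0.75 ± 0.36 (edgeR adjusted p of 0.419). CAC replicate 1 again lay within the CONT range. H2-DMb2, the other beta chain gene, was at 4.99, 7.53 and 23.1 CPM in CONT and at 3.70, 3.63 and 2.19 CPM in CAC. Its log2 fold change of -1.91 ± 0.64 (unadjusted p of 0.0214) rested partly on CONT replicate 3, the library with epididymis genes, and was -0.97 without it. H2-DMb1 and H2-DMb2 share sequence, with 22.7% of the 50-base stretches of H2-DMb1 transcripts also found in H2-DMb2, so reads could be split between them.

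The H2-O chains were near the limit of the depth. H2-Oa had 90 reads in all, with 0.981, 1.27 and 0.814 CPM in CONT and 0.534, 0.363 and 0.378 CPM in CAC, and a log2 fold change of -1.26 ± 0.46 (unadjusted p of 0.0312). H2-Ob had 369 reads and a log2 fold change of -0.70 ± 0.51. Summed over H2-DM and H2-O, the loading factors were at 66.0, 87.6 and 102 CPM in CONT and at 58.1, 36.2 and 33.8 CPM in CAC, with no overlap.

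Ciita (chromosome 16, 10480059 to 10528418), the class II coactivator, was lower in all 3 CAC libraries. It was at 8.65, 23.7 and 19.0 CPM in CONT and at 6.86, 7.79 and 5.25 CPM in CAC, from 97, 540 and 421 reads in CONT and 167, 193 and 139 reads in CAC. CAC replicate 1 was not the highest CAC library here, unlike in the other 9 class II genes tested. The log2 fold change was -1.37 ± 0.42, or 38.8% of the CONT mean, with an unadjusted p of 0.0144 and an adjusted p of 0.284 in edgeR. It was -1.67 without CONT replicate 1, -1.06 without CONT replicate 2 and -1.33 without CAC replicate 1. Dexi overlaps Ciita on the opposite strand and had 1992 reads against 1557 for Ciita, and whether the counting used strand was not given in the sources used here.

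Over the 10 class II genes tested, all had a negative log2 fold change, 5 had an unadjusted p under 0.05 (H2-Aa, H2-DMb1, H2-DMb2, H2-Oa and Ciita), against 6.95% of all genes lower, and 4 did not overlap between groups (H2-DMb1, H2-DMb2, H2-Oa and Ciita), against 10.7%. The median log2 fold change was -0.90. It was -1.07 without CONT replicate 1, -0.77 without CONT replicate 2, -0.83 without CONT replicate 3, -1.28 without CAC replicate 1, -0.77 without CAC replicate 2 and -0.65 without CAC replicate 3. In the same order, 4, 2, 1, 6, 2 and 2 of the 10 had an unadjusted p under 0.05, against 8.28%, 5.3%, 4.25%, 5.37%, 3.69% and 4.47% of all genes lower. The count of 1 without CONT replicate 3 was H2-DMb1 alone and is near the share of all genes. The 10 genes are not 10 independent readings, since they vary together between libraries.

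**Figure D3:**
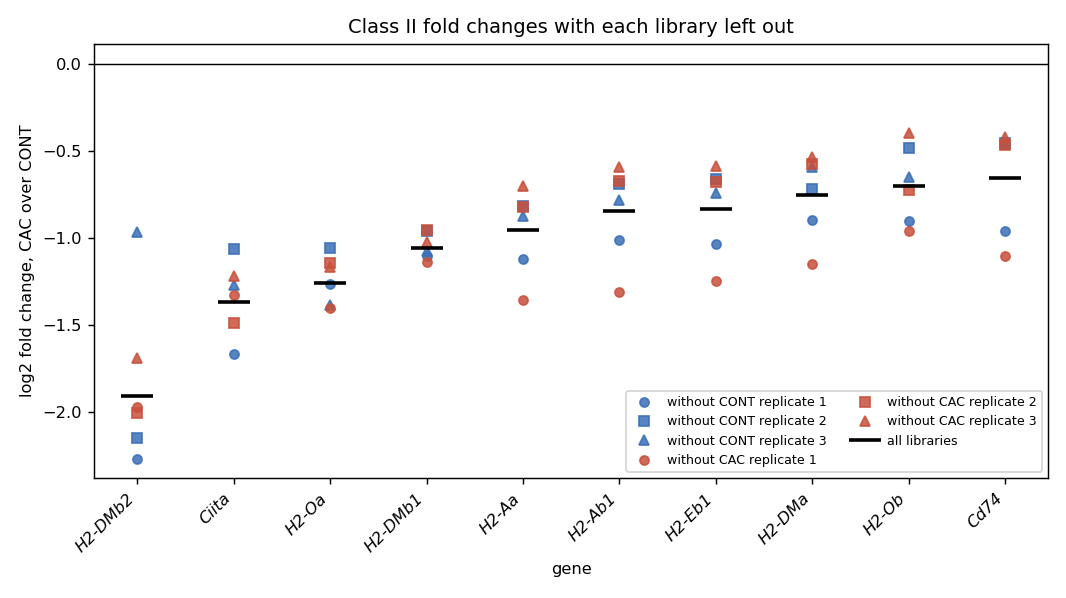
Log2 fold change of CAC over CONT (y axis) of the 10 tested class II genes (x axis) with all libraries (black bars) and with each library left out (blue markers for a CONT library left out, red for a CAC library). Every value lies below 0, and leaving out CAC replicate 1 gives the most negative of these values for every gene but H2-DMb2 and Ciita.

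The classical class I heavy chains had the highest FPKM of the heavy chains in eWAT and did not differ between groups beyond their spread. H2-D1 (chromosome 17, 35262730 to 35267499) was at 1453, 2134 and 1664 CPM in CONT and at 1707, 1492 and 1676 CPM in CAC. H2-K1 (chromosome 17, 33996017 to 34000333) was at 1236, 1592 and 1106 CPM in CONT and at 1086, 1313 and 1216 CPM in CAC. In both genes CONT replicate 2 was highest and the other 5 libraries lay close together. The log2 fold changes were -0.11 ± 0.29 for H2-D1 (edgeR adjusted p of 0.901) and -0.12 ± 0.28 for H2-K1 (adjusted p of 0.881), and both changed sign without CONT replicate 2, to 0.06 and 0.05. Of their transcripts' 50-base stretches, 12.8% in H2-D1 and 9.63% in H2-K1 also occur in other genes.

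B2m, the light chain (chromosome 2, 122147686 to 122153083), was at 1278, 1869 and 1189 CPM in CONT and at 1162, 814 and 798 CPM in CAC. All CAC libraries lay below all CONT libraries, by a small margin for CAC replicate 1 that was lost on the FPKM scale, with mitochondrial genes left out and without the filter on low counts. The log2 fold change was -0.64 ± 0.32, with an unadjusted p of 0.0855 and an adjusted p of 0.429 in edgeR. B2m shares no 50-base stretch with another gene.

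**Figure D4:**
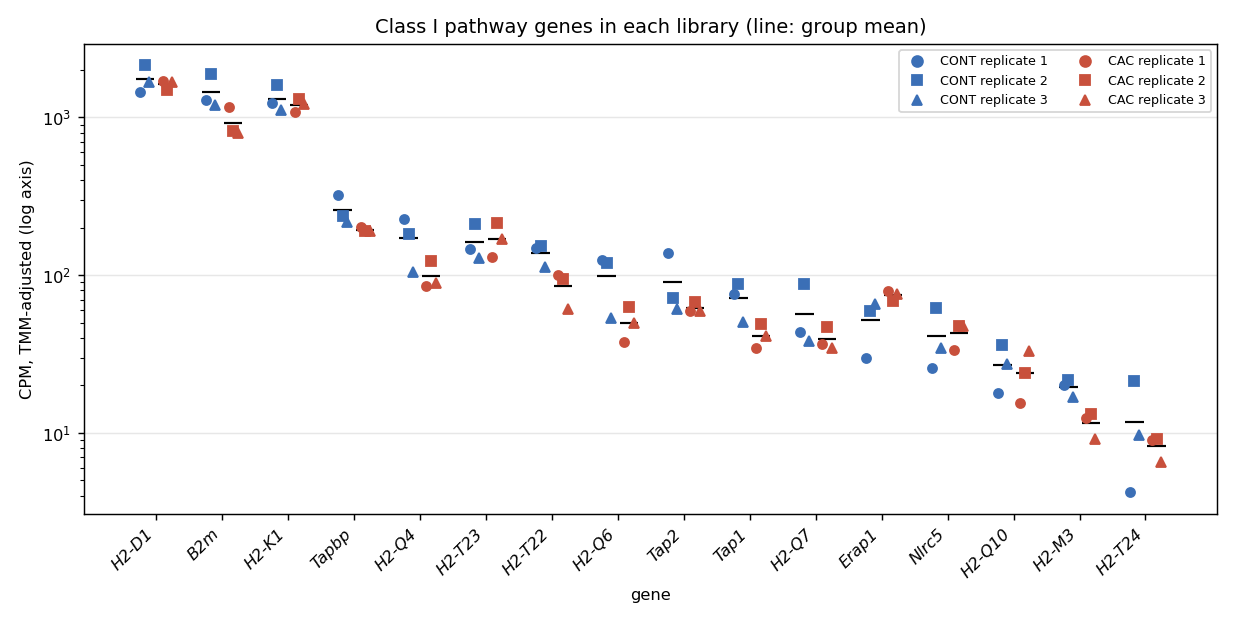
Level of 16 tested class I genes (x axis) in each library, in CPM on a log axis, with CONT in blue, CAC in red, a marker shape for each replicate number and a line at the group mean. H2-M9 and H2-Q2, with libraries at 0, are left out. B2m, Tapbp, H2-T22, Tap1 and H2-M3 show no overlap with CAC lower, and Erap1 shows none with CAC higher.

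Of the non-classical heavy chains, which present special ligands or engage receptors of natural killer and other lymphocytes, 10 of 22 were tested. Of these, 4 had an unadjusted p under 0.05, all lower in CAC, against 6.95% of all genes, and 0 without CONT replicate 2 or CAC replicate 3. H2-Q4 was at 228, 183 and 105 CPM in CONT and at 85.04, 123 and 89.4 CPM in CAC, with a log2 fold change of -0.79 ± 0.33 (unadjusted p of 0.0485) that was -0.52 without CONT replicate 1. H2-Q6 was at 125, 120 and 53.5 CPM in CONT and at 37.7, 62.7 and 49.4 CPM in CAC, with -0.99 ± 0.37 (unadjusted p of 0.0332). In both, the groups overlapped through CONT replicate 3.

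H2-T22, a ligand of some gamma delta T cells, was at 148, 153 and 113 CPM in CONT and at 100.2, 95.01 and 61.2 CPM in CAC, and H2-M3, which presents formylated bacterial and mitochondrial peptides, was at 20.2, 21.6 and 16.8 CPM against 12.4, 13.2 and 9.10 CPM. Neither overlapped between groups, with log2 fold changes of -0.69 ± 0.25 for H2-T22 and -0.75 ± 0.24 for H2-M3 (unadjusted p of 0.0318 and 0.0191). Among their 50-base stretches, 53.5% in H2-T22, 36.4% in H2-Q4 and 35.0% in H2-Q6 also occur in other genes, so these 3 counts are uncertain, while H2-M3 shares 0.576%.

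H2-T23, which encodes Qa-1, the ligand of the NKG2A receptor, was at 145, 210 and 129 CPM in CONT and at 130, 213 and 168 CPM in CAC, with a log2 fold change of 0.08 ± 0.28. The groups overlapped fully. H2-Q7 had a log2 fold change of -0.52 ± 0.35 that was -0.055 without CONT replicate 2. The log2 fold change was -0.17 ± 0.36 for H2-Q10 and -0.51 ± 0.57 for H2-T24, and the groups overlapped in all 3 genes. Without CONT replicate 2 both turned positive (0.09 and 0.25), as did H2-Q10 without CAC replicate 1 (0.13), so that no direction can be given for either. H2-M9 was at 0, 1.27 and 0.994 CPM in CONT and at 3.49, 2.26 and 1.66 CPM in CAC, with no overlap and a log2 fold change of 1.66 ± 1.03 (edgeR adjusted p of 0.509). H2-Q2 had 109 reads in all, with 0 reads in 1 CONT and 2 CAC libraries.

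The class I loading factors differed in direction. Tap1 and Tap2 form the transporter that brings peptides into the endoplasmic reticulum. Tap1 (chromosome 17, 34187553 to 34197225) was at 75.5, 87.7 and 50.4 CPM in CONT and at 34.4, 48.7 and 41.1 CPM in CAC. The groups did not overlap, which was lost with upper-quartile normalization, without the filter on low counts and without CAC replicate 1. Its log2 fold change was -0.78 ± 0.26 with an unadjusted p of 0.0206 and an adjusted p of 0.305 in edgeR. Psmb9 overlaps it on the opposite strand, with 4750 reads against 7098 for Tap1.

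Tap2 was at 138, 71.6 and 61.0 CPM in CONT and at 59.0, 67.5 and 59.5 CPM in CAC. Its log2 fold change of -0.54 ± 0.33 came from CONT replicate 1 and was -0.08 without that library. Tapbp encodes tapasin, which bridges the transporter and the heavy chain, and was at 322, 236 and 216 CPM in CONT and at 201, 189 and 189 CPM in CAC. The groups did not overlap, and the log2 fold change of -0.42 ± 0.23 (edgeR adjusted p of 0.458) was -0.21 without CONT replicate 1.

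Erap1, the peptidase that trims peptides in the endoplasmic reticulum, was at 29.9, 59.3 and 65.7 CPM in CONT and at 79.7, 68.8 and 75.4 CPM in CAC. It did not overlap, with CAC higher by a log2 fold change of 0.53 ± 0.30 (edgeR adjusted p of 0.480) that was 0.27 without CONT replicate 1. Cast overlaps Erap1 on the opposite strand and had 18553 reads against 8783. Nlrc5, the class I coactivator, was at 25.9, 62.2 and 34.6 CPM in CONT and at 33.8, 47.5 and 47.4 CPM in CAC, with a log2 fold change of 0.07 ± 0.35 (adjusted p of 0.955). Its sign changed when CONT replicate 1 (-0.15), CONT replicate 3 (-0.03) or CAC replicate 3 was left out, so that no direction can be given.

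Over the 18 class I genes tested, 14 had a negative and 4 a positive log2 fold change, with a median of -0.52. An unadjusted p under 0.05 was found for 5, all lower in CAC (H2-Q4, H2-Q6, H2-T22, H2-M3 and Tap1), against 6.95% of all genes. The count was 1 without CONT replicate 1 (8.28% of all genes), 0 without CONT replicate 2 (5.3%) and 0 without CAC replicate 3 (4.47%), at or below the share of all genes in these 3 fits. It was 5 without CONT replicate 3 (4.25%), 3 without CAC replicate 1 (5.37%) and 3 without CAC replicate 2 (3.69%). The groups did not overlap in 5 genes that were lower (B2m, Tapbp, H2-T22, H2-M3 and Tap1), against 10.7% of all genes, and in 2 that were higher (Erap1 and H2-M9), against 11.8%. The difference between the class I and the class II medians was not tested.

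The order of the libraries is given for both classes, and its difference between them was not tested. CAC replicate 1 was the highest CAC library in 9 of 10 class II genes and in 6 of 18 class I genes, and CAC replicates 2 and 3 were both below every CONT library in 10 of 10 and in 5 of 18. Over all genes tested, these shares were 36% and 18.8%. CONT replicate 1 was the lowest CONT library in 9 class II and in 7 class I genes, against 49.4% of all genes. CONT replicate 2 was the highest CONT library in 8 class II and in 13 class I genes, a majority in both, against 32% of all genes.

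Ratios within a library do not depend on how libraries are scaled. Per 100 FPKM of H2-K1 and H2-D1, the 3 classical class II chains stood at 53.5, 65.4 and 79.4 FPKM in CONT and at 62.4, 31.4 and 24.3 FPKM in CAC. CAC replicate 1 lay within the CONT range and the groups overlapped. B2m stood at 143, 151 and 129 FPKM per 100 FPKM of the same heavy chains in CONT and at 125, 87.5 and 83.1 FPKM in CAC, with no overlap. With 3 mice against 3, an exact two-sided permutation test of 1 such ratio cannot give a p below 0.1.

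**Figure D5:**
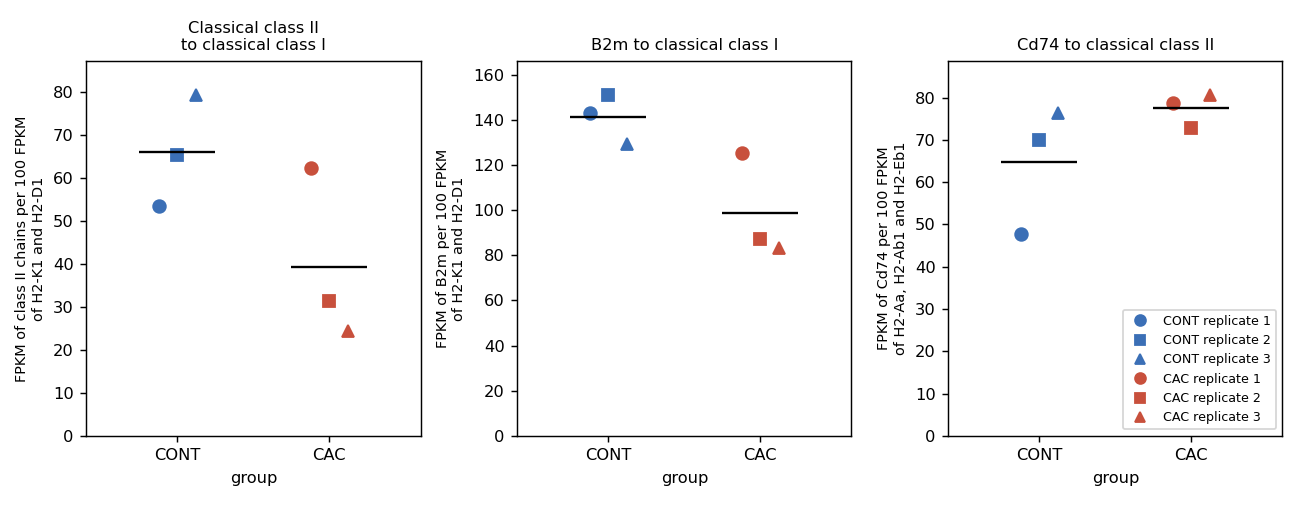
Ratios of FPKM within each library (y axes, starting at 0) for CONT and CAC (x axes): classical class II chains per 100 FPKM of H2-K1 and H2-D1, B2m per 100 FPKM of the same heavy chains, and Cd74 per 100 FPKM of H2-Aa, H2-Ab1 and H2-Eb1. Lines mark group means. The groups do not overlap for B2m, and CAC replicates 2 and 3 lie below all CONT libraries for class II.

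The remaining 13 members were too low to be tested. Of these, 5 had no read in any library (H2-M1, H2-M10.1, H2-M10.4, H2-M10.5 and H2-M10.6), and 8 had reads, at most 17 in a library (H2-M2, H2-M5, H2-M11, H2-M10.2, H2-M10.3, H2-Q1, H2-T3 and H2-Eb2). H2-Ke6, with 62 reads and a log2 fold change of -0.83 ± 0.69, was tested but could not be read at this depth, and it shares 70.5% of its 50-base stretches with an overlapping transcript.

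The rest of the class I pathway was read from a list of 18 other genes, all tested. Of these, 2 (11.1%) had an unadjusted p under 0.05, both lower in CAC, against 6.95% of all genes. The count was 0 without CAC replicate 2 and without CAC replicate 3. The median log2 fold change of the list was -0.32, and -0.14 without CONT replicate 1. The 2 lower genes were Psmb9 (log2 fold change of -0.95), a subunit of the immunoproteasome that cuts peptides for class I, and Sec61b (-1.01), a subunit of the translocation channel, and they were at -0.54 and -0.40 without CONT replicate 1. The rest of the class II pathway, 20 tested genes out of 22 names, held 2 lower and 1 higher, against 6.95% and 6.31% of all genes, with a median of -0.04. The count of lower genes was 4 without CONT replicate 1, 3 without CAC replicate 1 and 1 with any other library left out. The costimulatory genes Cd40 (-1.61) and Cd86 (-0.82), which antigen presenting cells show to T cells, were lower, Cd80 of the same kind was at -0.16 with overlap, and Creb1 (0.37), a factor that binds class II promoters, was higher. Among the DNA-binding partners of CIITA and NLRC5, those of RFX and NF-Y had no unadjusted p under 0.05 in edgeR. Their log2 fold changes were 0.24 for Rfx5, -0.33 for Rfxap, -0.05 for Rfxank, 0.24 for Nfya, 0.25 for Nfyb and 0.05 for Nfyc. The lysosomal proteases were at -0.38 for Ctsb, -0.34 for Ctsd, -0.03 for Ctsl and 0.01 for Ctss.

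Interferon gamma is an inducer of Ciita and of class I genes, and its part in their levels here was not tested. Of its signalling and target genes, 22 of 23 were tested, 9 had an unadjusted p under 0.05 and were lower in CAC, against 6.95% of all genes, and 1 was higher, against 6.31%. The list's median log2 fold change was -0.58. Cd274, which encodes the inhibitory ligand PD-L1, was at 30.3, 30.3 and 23.3 CPM in CONT and at 14.0, 15.5 and 15.3 CPM in CAC (log2 fold change of -0.91 ± 0.20). The guanylate binding proteins Gbp4 (-1.26 ± 0.29) and Gbp3 (-1.48 ± 0.43) were also lower without overlap.

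The 2 chains of the interferon gamma receptor differed in direction. Ifngr1 was at 143, 166 and 185 CPM in CONT and at 406, 295 and 308 CPM in CAC (1.03 ± 0.23), and Ifngr2 was at 34.8, 39.8 and 48.7 CPM against 24.9, 19.0 and 27.1 CPM (-0.80 ± 0.22). Irf1, a transcription factor of this pathway, had a log2 fold change of -0.39. None of these genes had an adjusted p under 0.05 in edgeR. Without CONT replicate 2 and without CAC replicate 1 or replicate 3, 5 genes of the list were lower, against 6 without CAC replicate 2, 8 without CONT replicate 1 and 11 without CONT replicate 3. Over all genes, 3.69% to 8.28% were lower in these 6 fits.

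Of the cells that make class II molecules, dendritic and B cell markers were lower more often than all genes, and macrophage markers were not. These counts are from the fit with every library and changed with single libraries, as given below. Over all genes, 6.95% were lower and 6.31% higher at an unadjusted p under 0.05, and 3.69% to 8.28% were lower with 1 library left out. Of 20 macrophage markers, 1 was lower at this threshold (C1qa) and 3 were higher (Mertk, Cd14 and Gpnmb). Their summed level was 1040 to 2610 CPM in CONT and 1338 to 2189 CPM in CAC, with CAC replicate 1 the highest CAC library as for class II. The count of lower macrophage markers was 6 without CONT replicate 1, 4 without CAC replicate 1 and 0 with any other library left out. The defining markers Adgre1 (log2 fold change of -1.17), Cd68 (-0.44) and Csf1r (-0.63) overlapped between groups.

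Of 14 dendritic cell markers, 4 were lower (Batf3, Kmo, Siglech and Xcr1), but 0 without CONT replicate 3 or CAC replicate 3 and 1 to 3 with any other library left out. The summed level was 442, 270 and 264 CPM in CONT and 173 to 242 CPM in CAC, with no overlap, and Fscn1 alone made 253 CPM of it in CONT replicate 1. With every library, all 14 had a negative log2 fold change, with a median of -0.47, and 4 did not overlap, against 10.7% of all genes. Flt3 (-0.002), Zbtb46 (-0.14) and Itgax (-0.31) overlapped between groups. Of 13 B cell markers found, 12 were tested and 3 were lower (Cd79b, Bank1 and Blk), but 0 without CAC replicate 3 and 1 or 2 with any other library left out. With every library, 11 of the 12 had a negative log2 fold change, with a median of -1.03. The groups did not overlap in 7, all lower in CAC, against 10.7% of all genes. The summed level of the B cell markers was 49.5, 28.7 and 25.3 CPM in CONT and 9.67 to 17.96 CPM in CAC. Pax5 alone made 19.6 CPM of it in CONT replicate 1, against 0.859 to 1.88 CPM in the other libraries. Ms4a1 (-1.14) and Cd79a (-1.09) were both present in every library. Of 17 T and NK cell markers tested, 2 were lower (Cd247 and Klrb1c), but 0 without CAC replicate 1 or CAC replicate 3, and the summed level was 45.7 to 96.6 CPM in CONT and 21.7 to 28.01 CPM in CAC. Klrb1c was at 68.3 CPM in CONT replicate 3 and at 0.713 to 2.28 CPM in the other libraries, and its log2 fold change of -3.92 was 0.06 without that library. Cd3e, a defining T cell gene, was higher in CAC without overlap (0.54 ± 0.45), and Cd3d (-0.42) and Cd3g (-0.92) overlapped. The summed levels of B cell and of T and NK cell markers did not overlap between groups. For T and NK cells, Klrb1c made 68.3 of the 96.6 CPM in CONT replicate 3, so most of that library's margin over CAC came from this gene.

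The 7 pan-leukocyte genes overlapped between groups in their summed level, at 343 to 549 CPM in CONT and 273 to 430 CPM in CAC. Of these, 5 had a negative log2 fold change, with a median of -0.39, and 1, Cd52 (-1.02), was lower without overlap. Lcp1 (-0.65), Laptm5 (-0.45) and Coro1a (-0.39) overlapped, as did Ptprc, the common leukocyte antigen, at 0.06. Of 11 fibroblast and progenitor genes, 5 were lower, and 3 to 5 with 1 library left out, with Col3a1 at -1.996. Adipocyte, endothelial and mesothelial markers were lower at this threshold in 0 of 11, 0 of 10 and 0 of 8 genes, and 1 of each list was higher (Pnpla2, Flt1 and Lrrn4). Without CONT replicate 1, 5 endothelial genes were higher, against 7.30% of all genes in that fit. Among adipocyte genes, CAC replicate 1 stood apart from the other two CAC libraries as it did for class II, with Lep as above and with Fabp4, a fatty acid carrier, at 13836 CPM against 3233 and 3750 CPM in CAC. No marker list held a gene with an adjusted p under 0.05 in edgeR, and the part of these markers in the class II levels was not tested.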

How the data were processed

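The RNA of 6 eWAT samples was enriched for poly(A) and sequenced, with 1 library per mouse. The authors used HISAT2 2.0.5 with an Ensembl mouse genome and, per the labels, featureCounts 1.5.0-p3. They deposited raw read counts per gene, and FPKM values made from those counts with gene length and a constant for each library, which was not its total count. Coordinates of genes are those of the deposited table (GRCm38). In the deposited counts, 27 of the gene names appear as dates or otherwise differ, and names were taken from the FPKM table by gene ID.

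All genes were fitted in R 4.3.3 with edgeR 4.0.16 (quasi-likelihood test, robust estimation, TMM, filterByExpr, Benjamini-Hochberg over 17296 genes), with condition as the only term. The study used DESeq2, which was an alternative here (DESeq2 1.42.0), as were limma 3.58.1 on voom values with sample quality weights and on log2(FPKM + 1) and log2(FPKM + 0.1), for genes with at least 0.5 FPKM in 3 libraries. On that scale fold changes of low genes are understated. CPM are on TMM-adjusted library sizes. Other alternatives were RLE and upper-quartile normalization, mitochondrial genes left out, no filter, at least 10 counts in every library, a replicate block, and each library left out. Fits were checked on simulated counts. Replicates of a group differed by more than sampling noise. Shared stretches were counted in GENCODE transcripts, at lengths of 50 and 100 bases, and promoter windows came from RefSeq (GRCm38.p6).

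The members and the lists were chosen with earlier results of these data known. By rule, all tested members were named, those with the most reads in each role with values per library, and of the other lists genes with an unadjusted p under 0.05, at most 4, and of marker lists the first 3. For room, fewer were named of some lists, and further pathway genes, H2-DMb2, H2-Oa, several non-classical heavy chains, Cd3e, Cd3d, Cd3g, Cd80, Fscn1, Pax5, Cd52, Lcp1, Laptm5, Coro1a, Lep and Fabp4 were given values after these were seen.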

Additional observations from a re-analysis of the deposited data

How the results depend on the processing

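The direction of every class II gene was negative under all alternatives that tested it, and all 16 alternatives kept H2-DMb1 at an unadjusted p under 0.05. The number of members lower at that threshold (10) was between 2 and 9 with 1 library left out, 5 with a replicate block (6.29% of all genes), 13 with sample quality weights (16%) and between 7 and 10 under the other alternatives (3.52% to 8.46%), and 1 member, H2-M9, was higher in limma on log2(FPKM + 1). An adjusted p under 0.05 was found for 1 member in DESeq2 (H2-DMb1; 917 of all genes) and for 5 in limma with sample quality weights (H2-Eb1, H2-Aa, H2-DMb1, H2-DMa and Ciita), a fit that called 956 of all genes and gave CONT replicate 1 a weight of 0.186. The class II median log2 fold change was -1.26 in that fit and between -1.28 and -0.65 with 1 library left out. The number of members without overlap (11) was between 12 and 19 with 1 library left out, since fewer libraries overlap less often (26.6% to 37.7% of all genes, against 22.5% with every library), and between 9 and 12 otherwise. B2m was lost from it with mitochondrial genes left out, without the filter and on FPKM, Tap1 with upper-quartile normalization and without the filter, H2-Oa on FPKM, and H2-M9 and H2-Oa with at least 10 counts in every library. The cause of the other shifts was not tested.

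The sign of single genes changed 12 times. It did so without CONT replicate 2 for H2-D1 (0.064), H2-K1 (0.045), H2-Q10 (0.09) and H2-T24 (0.25). H2-Q10 was at 0.13 without CAC replicate 1, and H2-T23 at -0.05 without CONT replicate 3 and -0.10 without CAC replicate 2. Nlrc5 was at -0.15 without CONT replicate 1, -0.03 without CONT replicate 3, -0.001 without CAC replicate 3 and -0.053 with sample quality weights, where H2-Ke6 was at 0.11. With 1 library left out, the log2 fold change ranged from -0.21 to 0.06 for H2-D1, from -0.22 to 0.05 for H2-K1, from -0.10 to 0.32 for H2-T23, from -0.45 to 0.13 for H2-Q10, from -0.89 to 0.25 for H2-T24 and from -0.15 to 0.51 for Nlrc5.

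Replicate numbers are shared between the groups, and the labels do not say whether they pair the mice, which 3 libraries per group cannot settle. Deviations of same-numbered libraries correlated at -0.03, 0.06 and -0.15 over 5779 genes, and not every library correlated best with its own number. With the replicate block 5 of the 10 members were left at an unadjusted p under 0.05 (Ciita, H2-DMb1, H2-M3, H2-T22 and Tap1). Depth limited H2-Oa, H2-Ob, H2-Q2, H2-M9 and H2-Ke6.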

Other observations

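Outside the 42 members, several relatives of the class I heavy chains stood in the count table, named here after their values were seen. Cd1d1, which presents lipids to natural killer T cells, was at 132, 290 and 284 CPM in CONT and at 259, 69.8 and 57.7 CPM in CAC, with a log2 fold change of -0.87 ± 0.64 and an edgeR adjusted p of 0.576. Its libraries were ordered as in the classical class II genes, with CAC replicate 1 within the CONT range and the other two CAC libraries below it. Hfe, a regulator of iron uptake that pairs with B2m, was at 70.8, 96.3 and 84.98 CPM in CONT and at 67.2, 38.5 and 29.6 CPM in CAC, without overlap (log2 fold change of -0.90 ± 0.33, adjusted p of 0.338). Mr1, which presents vitamin metabolites, had a log2 fold change of -0.78 ± 0.33 (adjusted p of 0.379), and Fcgrt, the neonatal Fc receptor, of -0.38 ± 0.33 (adjusted p of 0.642).

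Of the 45 rows with an H2 name, 11 are not annotated as protein-coding. H2-T10, listed as a polymorphic pseudogene, was at 13.0, 11.2 and 5.51 CPM in CONT and at 4.68, 6.38 and 2.79 CPM in CAC, with a log2 fold change of -1.10 ± 0.47 (edgeR adjusted p of 0.384). It is the gene that shares the most 50-base stretches with H2-T22 (31.3% of those of H2-T22), so part of the reads of both could belong to either. H2-Q5 and H2-K2 had log2 fold changes of -0.59 and -0.44.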
